A study of Arabidopsis thaliana with 24 samples.

Results

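The nuclear genome of *Arabidopsis thaliana* carries, beside the centromere of chromosome 2, a long copy of the mitochondrial genome. The genes annotated in that copy, called insertion genes here, were followed in wild type plants (WT, ecotype Col-0) and in the line OX7.5, grown with sufficient sulfur (nS) or under sulfur deficit (-S). Members were all genes from AT2G07667 to AT2G07835 by locus number that had a probe set assigned to that gene alone, and the brightest such probe set stood for the gene. This gave 51 genes, all annotated as protein coding, of 16554 genes tested. The range holds 144 loci in the TAIR10.1 gene table, of which 62 were in the array annotation and 11 of those lay only on probe sets shared with other genes. In chromosome order 49 of the 51 members precede ABCC13 (AT2G07680), a nuclear transporter gene whose locus number also lies in the range. The other 2, AT2G07750 and AT2G07760, lie past ABCC13 and were kept because the rule is by number.

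OX7.5 is a single line in the Col-0 background that expresses NBR1, the selective autophagy cargo receptor, fused to a TAP tag from the constitutive 35S promoter. RNA came from shoots and roots of plants 33 days old, which makes 8 groups of 3 biological replicates on 24 Affymetrix arrays. The -S plants had spent 4 days in medium of low sulphate, and the nS samples are those whose labels do not mention low sulphate. The nS and -S arrays were deposited in separate runs of sample numbers, so any difference between those runs and the effect of sulfur supply cannot be told apart.

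Plant mitochondria keep a small genome of their own, which encodes a few subunits of the respiratory chain and of ATP synthase, proteins of cytochrome c maturation, some ribosomal proteins and many open reading frames of no known function. The chromosome 2 copy carries the same kinds of genes in nearly the same sequence, so that probes against it can also bind transcripts made in the mitochondria. Mitochondrial genes are transcribed by RNA polymerases of the phage type that are themselves encoded in the nucleus. The annotation used names no product for the members, and a role is given below only where a member shares a probe set with a named gene.

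The probe sets can be placed in runs by their identifiers. The identifiers rise in genome order, and 99.6% of neighbouring nuclear probe sets lay on the same chromosome in rising position. A run for chromosome 2 and a run for the mitochondrial genome were inferred from this order, not read from a design file of the array. The 68 single-gene probe sets of the members fell into the first run in 50 cases and into the second in 18 cases. For 9 members the brightest probe set was in the mitochondrial run. Of the 134 probe sets of that run, 22 (16.4%) had values identical on all 24 arrays to those of a probe set outside it, among them the probe sets of AT2G07691, AT2G07707 and AT2G07713. For these genes the chromosome 2 copy and the mitochondrial gene cannot be told apart by the arrays at all. A change described below is therefore a change of the probe set signal, and in whole organs fewer cells of a type and less RNA per cell cannot be told apart.

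Replicates within a group correlated between 0.973 and 0.991 over all probe sets. Levels are given in log2 units and were compared within an organ only, because array medians were 3.92 to 3.97 in shoots and 2.58 to 2.63 in roots. RCA and LHCB4.1, the 2 of 16 listed photosynthetic markers with a probe set of their own, were higher on every shoot array than on any root array. The 2 of 10 root markers measured, the peroxidase genes AT5G17820 and AT5G66390, were higher on every root array. BGLU28, a gene for a beta-glucosidase known to be induced by sulfur deficit, was higher in -S roots by 4.09 in WT and by 3.86 in OX7.5. In shoots it did not respond, with 0.15 ± 0.34 in WT and -0.01 ± 0.34 in OX7.5. NBR1 itself has no probe set of its own in the annotation used.

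A single array stood apart for the insertion genes. WT roots nS replicate 1 had a mean over the 51 members of 4.85, against 5.57 and 5.45 on the other WT roots nS arrays. It was the lowest array of its group for 38 of the 51 members, while this was so for 35.5% of all genes. The median member lay 0.70 below the mean of the other 2 arrays, and the median of all genes differed by 0.00. The median SD of a member in WT roots nS was 0.45, against 0.21 over all genes. On the same array the mean of the mitochondrial genome genes was 9.07, against 9.39 and 9.36, and that of the plastid genome genes was 7.97, against 7.79 and 7.95. Counts that involve this group are also given without that array.

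**Figure D1:**
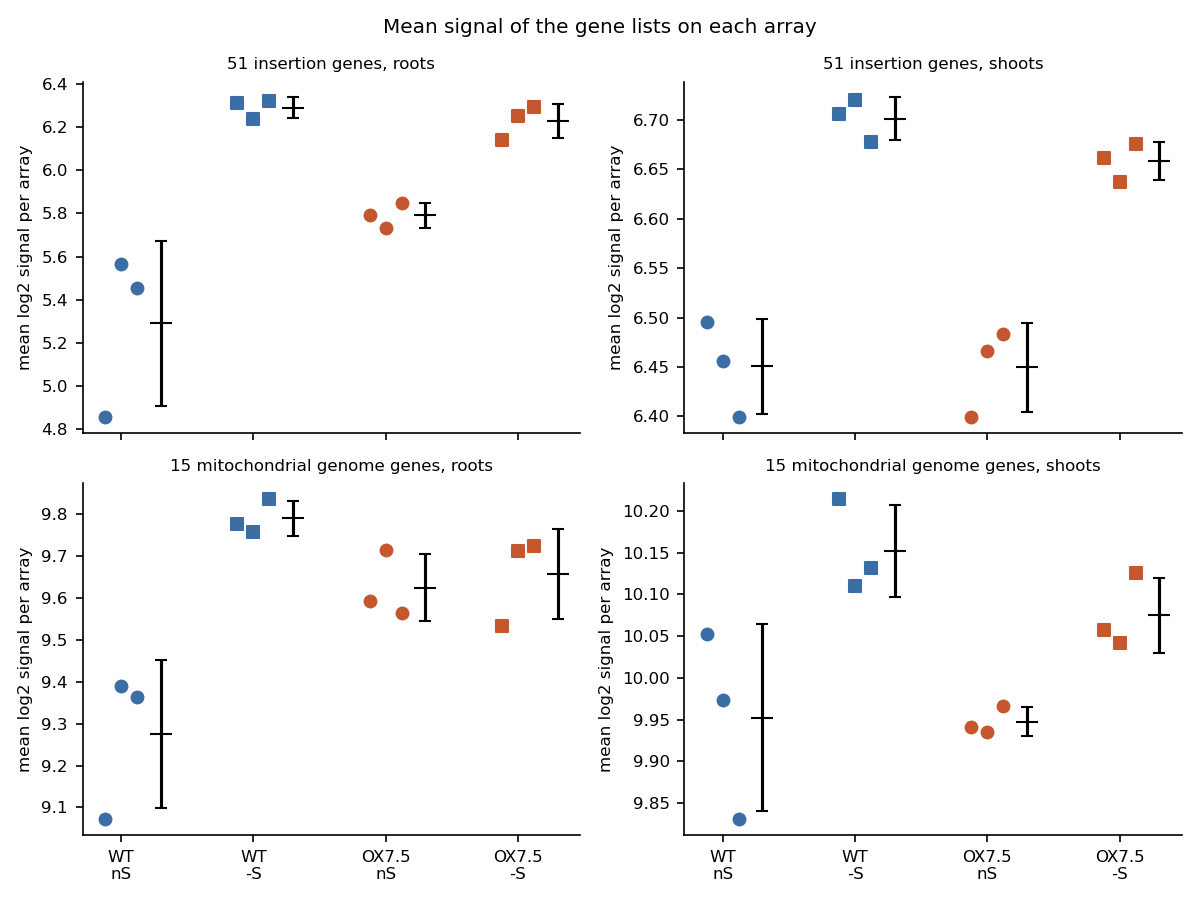
Mean log2 signal of the 51 insertion genes and of the 15 mitochondrial genome genes on every array, in roots (left) and shoots (right). The insertion genes are in the upper panels and the mitochondrial genes in the lower ones. Points are arrays, and bars give the group mean ± SD (n = 3). In roots the WT nS arrays lie lowest, between 4.85 and 5.57 for the insertion genes, and the -S arrays of both lines lie together between 6.14 and 6.32. The vertical axes do not start at 0.

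The first question was how sulfur deficit changed these genes in roots of wild type. Most of them rose, and the rise was large. A gene was called changed at a fold of at least 1.5 with a Benjamini-Hochberg adjusted p below 0.05 in limma, a linear model over all 16554 genes. In WT roots 35 of the 51 members (68.6%) rose and 1 fell, whereas 9.21% of all genes rose and 7.2% fell. The median change of the members was 1.13 on the log2 scale, a fold of 2.19, and that of all genes was -0.06. Member means were 4.85 to 5.57 on the WT roots nS arrays and 6.24 to 6.32 on the WT roots -S arrays, so the arrays did not overlap. Without WT roots nS replicate 1 the median was 0.85, and 33 members were called, all of them up. Of all 16554 genes 1337 then rose and 1059 fell.

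The strongest riser was AT2G07721. Its values were 3.41, 4.39 and 4.40 in WT roots nS and 6.85, 6.75 and 6.63 in WT roots -S. The groups lay far apart, and the change was 2.68 ± 0.19 (SE), a fold of 6.39 (adjusted p = 9.7e-11). AT2G07722 had 5.70, 7.76 and 7.40 in nS and 9.12, 9.00 and 9.14 in -S. Replicate 1 was far below the others, and the change of 2.13 ± 0.29 (adjusted p = 5e-06) became 1.51 without it. AT2G07719, read in the mitochondrial run, had nS arrays closer to each other, at 6.87, 7.16 and 6.97 in nS and 8.86, 8.88 and 8.98 in -S. Its change was 1.91 ± 0.12 (adjusted p = 1.7e-11), and 1.84 without replicate 1.

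AT2G07798 had 2.90, 4.45 and 4.25 in nS and 5.83, 5.71 and 5.93 in -S, a change of 1.95 ± 0.24. AT2G07830 had 5.50, 6.93 and 6.98 in nS and 8.40, 8.38 and 8.32 in -S, a change of 1.90 ± 0.23. AT2G07825, near it in chromosome order, had 5.83, 6.64 and 6.74 in nS and 8.22, 8.27 and 8.24 in -S, a change of 1.84 ± 0.18. In each of these genes every -S array was above every nS array, with replicate 1 of nS the lowest. AT2G07749, read by a probe set of the mitochondrial run, had the widest nS group, with 2.61, 5.17 and 4.75, against 5.95, 6.14 and 5.88 in -S. Its change of 1.82 ± 0.35 (adjusted p = 0.00033) fell to 1.03 without replicate 1 and still passed the test. AT2G07724 had 3.85, 5.49 and 4.45 in nS and 6.03, 6.01 and 6.30 in -S, a change of 1.52 ± 0.30.

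**Figure D2:**
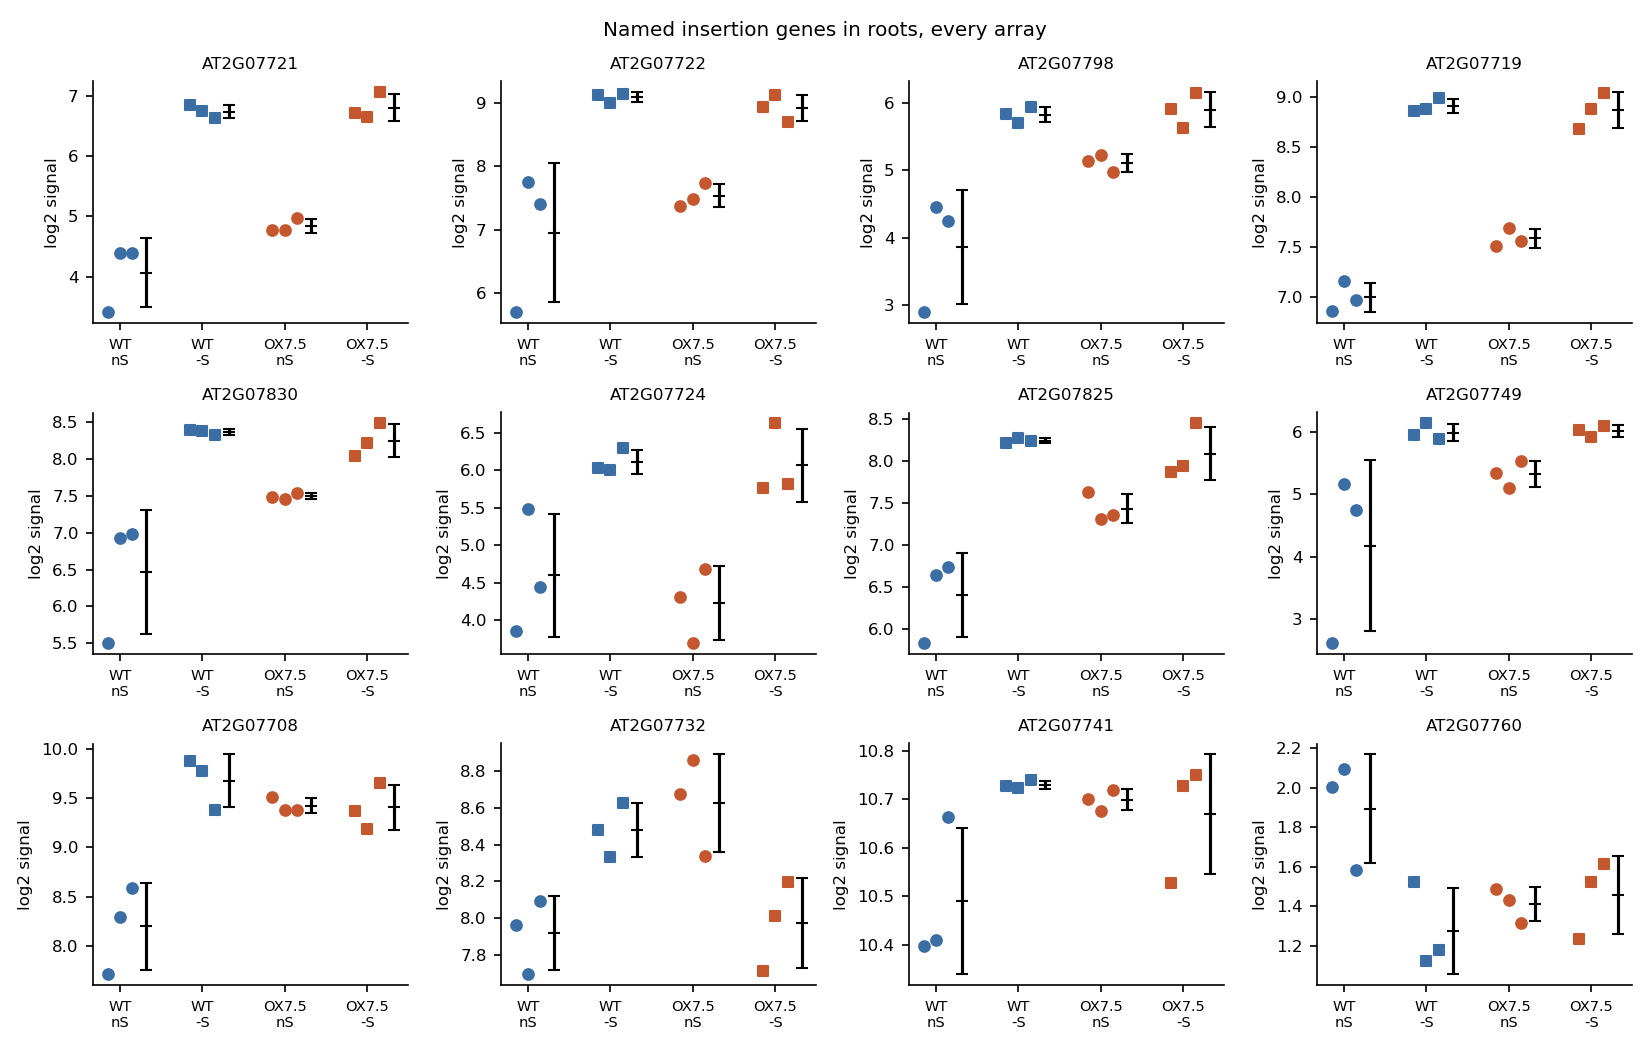
Log2 signal of 12 insertion genes in roots on every array. Circles are nS and squares -S arrays, blue is WT and red is OX7.5, and bars give the mean ± SD (n = 3). The scale differs between panels and does not start at 0. In the first 8 genes every -S array of a line lies above every nS array of that line, and in AT2G07708 and AT2G07732 the lines differ in their change.

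The remaining members were spread from no change to changes of this size. The 22 genes that rose in WT roots but not in OX7.5 roots included AT2G07749, and the smallest called rise in WT roots was 0.64. The 15 members not called in WT roots lay between -0.38 and 0.61. In all, 12 members were not called under -S in either line or organ.

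Of the 4 brightest members over all arrays, AT2G07741, AT2G07707 and AT2G07751 were among those 12. AT2G07741 had 10.40, 10.41 and 10.66 in WT roots nS and 10.73, 10.72 and 10.74 in -S. The -S arrays were all above the nS arrays, but the change was 0.24 ± 0.11 (adjusted p = 0.13). AT2G07707, whose probe sets in both runs were identical, had 10.69, 10.61 and 10.90 in nS and 11.01, 10.97 and 10.99 in -S, a change of 0.26 ± 0.12 (adjusted p = 0.12). AT2G07751 had 10.07, 10.24 and 10.30 in nS and 10.32, 10.28 and 10.50 in -S, and these groups overlap. The other of the 4, AT2G07732, is taken up with OX7.5 roots, where it fell.

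Members that share a probe set with a named gene behaved unevenly. AT2G07785 shares probe sets with nad1, which encodes a subunit of NADH dehydrogenase, and with rps7, a ribosomal protein gene. On the probe set assigned to it alone it had 4.92, 5.49 and 5.32 in WT roots nS and 6.79, 6.52 and 6.89 in -S. The change was 1.49 ± 0.23 (adjusted p = 2.1e-05). The single-gene probe set of nad1 itself differed by 0.17 ± 0.11 (adjusted p = 0.30). AT2G07715, which shares a probe set with the ribosomal protein gene rpl2, rose by 1.16 ± 0.15. AT2G07815, which shares a probe set with ccb452, a gene of cytochrome c maturation, rose by 1.05 ± 0.17. AT2G07695 shares a probe set with cox2, the gene for a subunit of cytochrome oxidase, and its own probe set was dim. It had 1.62, 1.82 and 1.82 in nS and 1.78, 1.81 and 1.90 in -S, which overlap, and neither AT2G07695 (0.08 ± 0.19) nor cox2 (0.25 ± 0.15) passed the test.

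The genes past ABCC13 did not follow the rest, but their signal was low. All their values in WT roots lay below the root array medians of 2.58 to 2.63, so this contrast says little. AT2G07760 had 2.01, 2.1 and 1.58 in WT roots nS and 1.52, 1.12 and 1.18 in -S, a fall of 0.62 on the log2 scale (SE 0.21, adjusted p = 0.036). It is the only member that fell there, and the call was lost on leaving out any of 4 of the 6 arrays, WT roots nS replicates 1 and 2 and WT roots -S replicates 2 and 3. AT2G07750 had 1.84, 2.42 and 1.55 in nS and 1.44, 1.49 and 1.72 in -S, which overlap. Without both genes 35 of 49 rose, 0 fell and 44 had an unadjusted p below 0.05, as did 5457 of all 16554 genes. Without WT roots nS replicate 1 the count that rose was 33.

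The second question was whether the line that overexpresses NBR1 changed in the same way. In OX7.5 roots 14 of the 51 members rose and 2 fell under -S, and 7.79% of all genes rose and 7.1% fell. The median member changed by 0.39, a fold of 1.31, and the median of all genes by -0.02. Of the 14 that rose, 13 had also risen in WT roots, which is 92.9% of the risers in OX7.5 and 37.1% of those in WT. The lines shared 16 risers when WT roots nS replicate 1 was left out, and 17 others rose in WT and 1 other in OX7.5. AT2G07667 was the exception, with 0.69 ± 0.19 in OX7.5 and 0.44 ± 0.19 in WT.

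AT2G07721 again led, from 4.77, 4.77 and 4.97 in OX7.5 roots nS to 6.72, 6.65 and 7.06 in -S, a change of 1.97 ± 0.19. AT2G07724 was the only one of the 8 genes followed array by array above whose change was larger in OX7.5 than in WT, from 4.30, 3.69 and 4.68 to 5.76, 6.63 and 5.82, a change of 1.84 ± 0.30. Both genes had groups that did not overlap. AT2G07722 went from 7.38, 7.49 and 7.74 to 8.93, 9.12 and 8.71, a change of 1.38 ± 0.29. AT2G07719 went from 7.51, 7.69 and 7.56 to 8.68, 8.87 and 9.04, a change of 1.28 ± 0.12. These genes held their calls whichever root array was left out.

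For other genes the call in OX7.5 roots depended on single arrays. AT2G07830 rose by 0.76 ± 0.23 and AT2G07798 by 0.79 ± 0.24, and each lost its call on leaving out any of 3 of the 6 arrays. These were OX7.5 nS replicates 1 and 2 and -S replicate 3 for AT2G07830, and OX7.5 nS replicate 3 and -S replicates 1 and 3 for AT2G07798. AT2G07825 rose by 0.66 ± 0.18 and lost its call without OX7.5 -S replicate 3. AT2G07749 had 5.34, 5.11 and 5.53 in nS and 6.04, 5.92 and 6.10 in -S. Its arrays did not overlap, but the change of 0.70 ± 0.35 did not pass (adjusted p = 0.19).

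The brightest members again lay close together. AT2G07741 had 10.70, 10.68 and 10.72 in OX7.5 roots nS and 10.53, 10.73 and 10.75 in -S, and AT2G07707 had 10.83, 10.95 and 10.87 in nS and 10.64, 10.90 and 11.01 in -S. Both pairs of groups overlap. AT2G07785, on the probe set assigned to it alone, had 5.90, 6.61 and 5.91 in nS and 6.60, 6.83 and 6.52 in -S. These overlap, and the change was 0.51 ± 0.23 (adjusted p = 0.13). Past ABCC13, AT2G07760 had 1.48, 1.43 and 1.31 in nS and 1.23, 1.52 and 1.61 in -S, which overlap too.

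The 2 members that fell in OX7.5 roots, AT2G07732 and AT2G07773, were among the brighter ones in roots. AT2G07732 had 8.67, 8.86 and 8.34 in OX7.5 nS and 7.71, 8.01 and 8.19 in -S. The groups did not overlap, and the fall was 0.65 on the log2 scale (SE 0.17, adjusted p = 0.0056), with the call lost without OX7.5 nS replicate 2 or -S replicate 1. AT2G07773, which shares a probe set with the ribosomal protein gene rps12, had 9.08, 9.26 and 8.94 in nS and 8.13, 8.28 and 8.69 in -S, and it fell by 0.73 on the log2 scale (SE 0.17, adjusted p = 0.0034). Of the 63 plastid genome genes measured, 19 fell and 0 rose in the same comparison, with a median of -0.39. The part of plastid transcripts in the signal of these members was not tested.

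**Figure D3:**
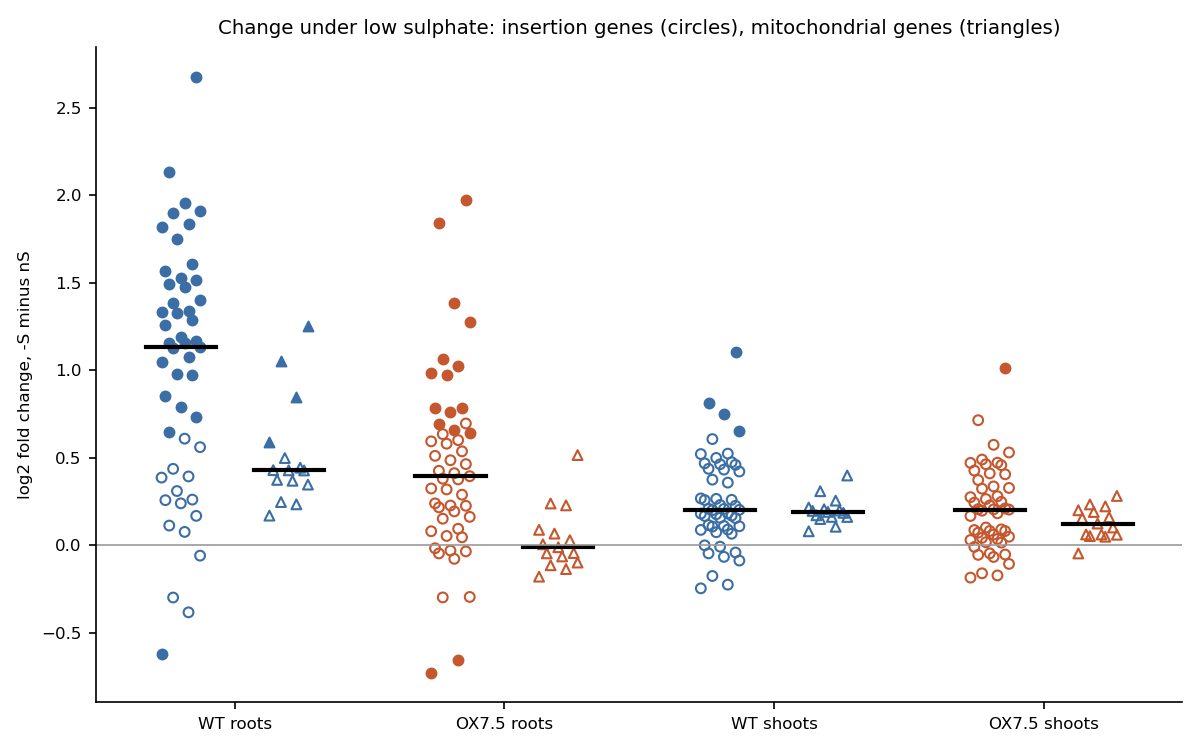
Log2 fold change under -S of the 51 insertion genes (circles) and the 15 mitochondrial genome genes (triangles) in each line and organ. Filled symbols passed the test, and black lines are medians. The median of the insertion genes is 1.13 in WT roots, 0.39 in OX7.5 roots and 0.20 in shoots of both lines.

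The difference between the lines was then tested directly, as the -S change in OX7.5 minus that in WT. In roots this interaction was below 0 for 44 of the 51 members, with a median of -0.63, against 0.02 for all genes. It passed an adjusted p below 0.05 for 2 members, both below 0, while 0.0362% of all genes passed above 0 and 0.0242% below 0. A further 24 members had an unadjusted p below 0.05, for 26 in all, as did 1596 of all 16554 genes. Without WT roots nS replicate 1 the median was -0.34 and 0 members passed, as did 0 of all genes, and the values of the 2 members were then -1.25 (AT2G07708, adjusted p = 0.075) and -1.24 (AT2G07732, adjusted p = 0.14).

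AT2G07708, read by a probe set of the mitochondrial run, differed most. It had 7.72, 8.29 and 8.59 in WT nS, 9.88, 9.78 and 9.38 in WT -S, 9.51, 9.38 and 9.38 in OX7.5 nS and 9.37, 9.19 and 9.65 in OX7.5 -S. The WT nS arrays were low, and the other 3 groups overlapped. The interaction was -1.49 ± 0.24 (adjusted p = 0.021), from a rise of 1.48 ± 0.17 in WT and -0.02 ± 0.17 in OX7.5. Its probe set on chromosome 2 gave an interaction of -0.77, which was not called. AT2G07732 had 7.96, 7.69 and 8.09 in WT nS and 8.48, 8.33 and 8.62 in WT -S. Its interaction was -1.21 ± 0.24 (adjusted p = 0.048), from 0.56 ± 0.17 in WT, which missed the fold threshold, and the fall in OX7.5. AT2G07669 had the next largest interaction, -1.19 ± 0.41, which did not pass (adjusted p = 0.34). It had 2.94, 4.80 and 4.74 in WT nS and 5.78, 5.65 and 5.86 in WT -S, where it rose by 1.60 ± 0.29. In OX7.5 it had 5.28, 5.01 and 5.58 in nS and 5.66, 5.56 and 5.88 in -S, and those groups overlap.

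These 2 calls rested on the whole set of arrays. AT2G07708 lost its call on leaving out any of 6 of the 12 root arrays, which were WT nS replicate 1, OX7.5 nS replicates 2 and 3, WT -S replicates 1 and 2 and OX7.5 -S replicate 1. AT2G07732 lost its call on leaving out any of 10 of the 12, all but WT nS replicate 3 and OX7.5 -S replicate 3. The number of members called was 0 without WT nS replicate 1, OX7.5 nS replicate 2 or 3, WT -S replicate 1 or 2, or OX7.5 -S replicate 1. It was 1 without WT nS replicate 2, OX7.5 nS replicate 1, WT -S replicate 3 or OX7.5 -S replicate 2, 4 without OX7.5 -S replicate 3 and 6 without WT nS replicate 3.

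The lines were also compared at each sulfur supply. These comparisons use the same arrays as the ones above, so they restate part of the same differences. In nS roots 11 members were higher in OX7.5 than in WT and 0 were lower, whereas 0.375% of all genes were higher and 0.429% lower. An unadjusted p below 0.05 was met by 31 members and by 2305 of all 16554 genes. The median member was 0.58 higher, a fold of 1.50. The calls ranged from 0.59 for AT2G07719 to 1.24 for AT2G07798, and AT2G07708 was 1.22 ± 0.17 higher (adjusted p = 0.0018). AT2G07719 and AT2G07708 were read in the mitochondrial run. Their chromosome 2 probe sets gave -0.12 and 0.55, neither called. AT2G07674 went the other way, with 0.81 (called) on chromosome 2 and 0.16 (not called) in the mitochondrial run. Without WT roots nS replicate 1 the median was 0.28 and 3 members were called, AT2G07708 (0.98), AT2G07798 (0.76) and AT2G07825 (0.74). Of all 16554 genes 10 were then called higher and 14 lower. The count was 18 without WT nS replicate 2, 21 without WT nS replicate 3, 5 without OX7.5 nS replicate 1 or 3, and 3 without OX7.5 nS replicate 2.

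In -S roots the lines lay together. The median member differed by -0.06, and 0 members and 0 genes in all (0%) were called higher or lower (0%). An unadjusted p below 0.05 was met by 1 member and by 633 of all 16554 genes. The member means were 6.14 to 6.29 on the OX7.5 arrays and 6.24 to 6.32 on the WT arrays, which overlap.

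In shoots the insertion genes changed little. Under -S 4 members rose in WT shoots and 0 fell, against 8.62% and 9.42% of all genes. There 10 members had an unadjusted p below 0.05, as did 5478 of all 16554 genes. In OX7.5 shoots 1 rose and 0 fell, against 5.75% and 5.53% of all genes. There 9 members had an unadjusted p below 0.05, as did 4267 of all 16554 genes. The share of members that rose was thus near or under that of all genes. The median change was 0.20 in both lines, and the median of all genes was -0.03 in WT and 0.00 in OX7.5. AT2G07721 rose in both lines, from 6.50, 6.56 and 6.81 to 7.74, 7.91 and 7.54 in WT and from 6.61, 6.72 and 6.54 to 7.67, 7.65 and 7.60 in OX7.5. The changes were 1.11 ± 0.19 and 1.01 ± 0.19, and the groups did not overlap in either line.

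The other members that rose in WT shoots were AT2G07738 (0.81 ± 0.24), AT2G07672 (0.75 ± 0.24) and AT2G07719 (0.66 ± 0.12), all of which had also risen in roots of both lines. AT2G07719 had 7.99, 7.70 and 7.83 in WT shoots nS and 8.51, 8.53 and 8.45 in -S. In OX7.5 shoots it had 7.77, 7.80 and 7.94 in nS and 8.37, 8.39 and 8.48 in -S, a change of 0.57 that missed the fold threshold. Fewer members, 2, were called in WT shoots without WT nS replicate 3 or WT -S replicate 2. In OX7.5 shoots 4 were called without OX7.5 nS replicate 3 and 2 without OX7.5 -S replicate 1 or 2.

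The interaction of line and sulfur supply in shoots passed for 0 members, whereas 0.193% of all genes passed above 0 and 0.344% below. An unadjusted p below 0.05 was met by 2 members and by 1479 of all 16554 genes. The median interaction of the members was -0.01. The 3 largest values were -0.65 ± 0.43 for AT2G07724, -0.48 ± 0.22 for AT2G07714 and -0.48 ± 0.27 for AT2G07673, and the lowest adjusted p over the members was 0.51. AT2G07714 had 4.11, 4.28 and 4.42 in WT nS, 4.77, 4.96 and 4.58 in WT -S, 4.34, 4.67 and 4.81 in OX7.5 nS and 4.71, 4.56 and 4.61 in OX7.5 -S. AT2G07724 had 4.89, 4.59 and 4.82 in WT nS, 5.13, 5.27 and 5.31 in WT -S, 4.95, 4.67 and 5.50 in OX7.5 nS and 4.52, 5.02 and 5.03 in OX7.5 -S. AT2G07673 had 2.03, 1.96 and 1.81 in WT nS and 2.25, 2.24 and 2.59 in WT -S. In OX7.5 it had 2.34, 2.63 and 2.61 in nS and 2.80, 2.18 and 2.43 in -S, and all its shoot values were below the array medians. In each of these genes the -S arrays lay above the nS arrays in WT shoots, while the OX7.5 groups overlapped. OX7.5 and WT shoots differed in 0 members in nS, while 0.882% of all genes were higher and 0.737% lower in OX7.5. They differed in 0 members in -S, while 0.0242% were higher and 0.0544% lower. An unadjusted p below 0.05 was met by 2 members in nS and 0 in -S, and by 1785 and 1019 of all 16554 genes.

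The -S change in roots was set against that in shoots in each line. In WT the difference passed the test with a larger value in roots for 27 members and with a smaller one for 1, AT2G07760, against 12.1% and 10.3% of all genes. The median difference was 0.85. Without WT roots nS replicate 1 it was 0.61, with 22 members above 0 called and 0 below. Of all 16554 genes 1753 were then called above 0 and 1576 below. AT2G07722 differed most, by 2.20, since it rose in roots and stood at 10.14, 9.93 and 9.83 in WT shoots nS and 9.85, 10.00 and 9.86 in -S. In OX7.5 the difference passed for 6 members above 0 and 1 below 0, AT2G07732, against 7.88% and 8.48% of all genes, with a median of 0.23. As shares of the members these are 11.8% and 1.96%, so that the members were not called more often than all genes when both directions are counted. The count in OX7.5 fell from 7 to 4 without OX7.5 shoots nS replicate 3 or OX7.5 roots -S replicate 2.

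Along the chromosome the risers of WT roots were spread from the second to the 48th of the 49 genes before ABCC13. In WT roots 14 of the first 24 genes in that order rose, and 21 of the last 25, or 13 and 20 without WT roots nS replicate 1. The OX7.5 roots had 4 risers among the first 24 and 10 among the last 25. The median change in OX7.5 roots was 0.23 over the first 24 and 0.59 over the last 25. The 4 genes with the largest changes in OX7.5 roots, AT2G07719, AT2G07721, AT2G07722 and AT2G07724, lie between ranks 32 and 36. No test was made of position. By coordinates 4 members overlap another member, and their signals may not be independent.

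**Figure D4:**
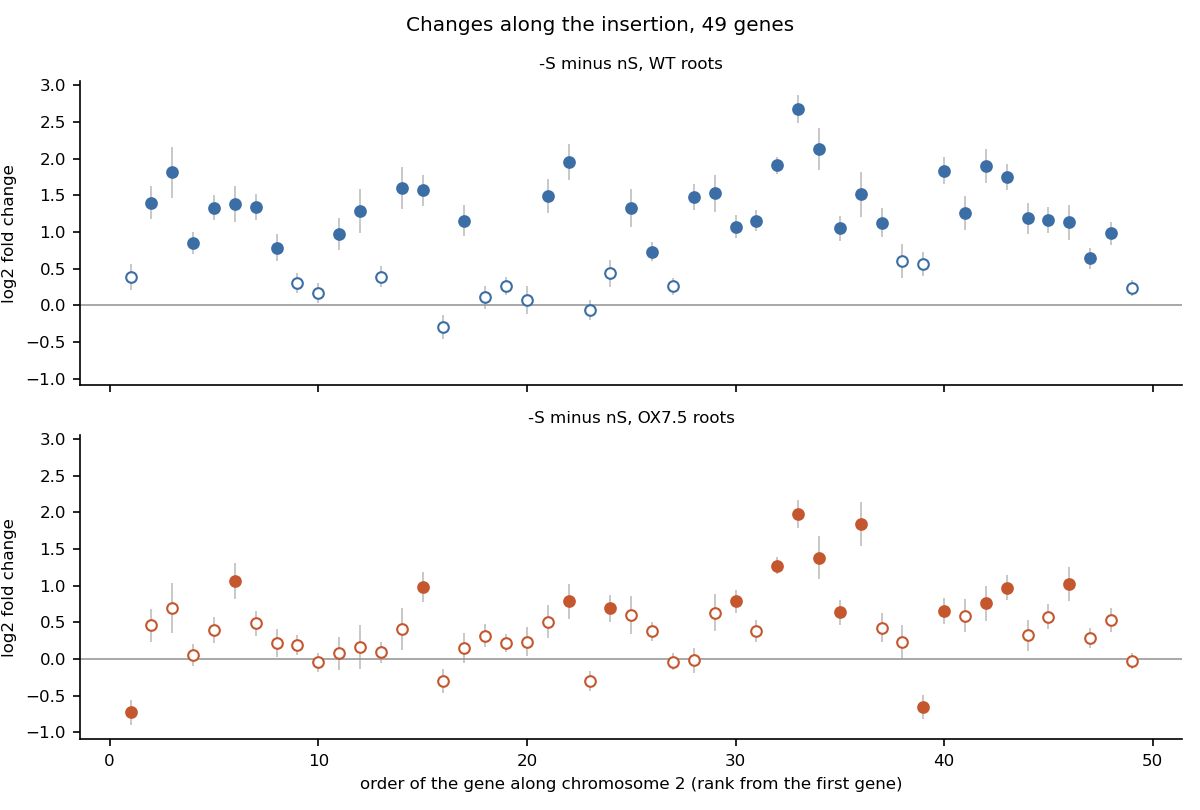
Log2 fold change under -S in roots of WT (top) and OX7.5 (bottom) for the 49 insertion genes before ABCC13, in chromosome order. Points are genes, filled where the test was passed, and bars are SE. Filled points are spread over the order in WT roots, and the highest point in both lines is AT2G07721 at rank 33.

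Genes with probe sets in both runs allowed a comparison of the 2 readings. There were 14 such genes, 3 of them with identical values. In the other 11 the -S change in WT roots was above 0 in both runs for 10 genes and was called up in both for 7, or for 10 and 6 without WT roots nS replicate 1. The readings differed by 0.00 to 1.31, with a median of 0.28. AT2G07719 rose by 0.60 on the chromosome 2 probe set and by 1.91 on the mitochondrial one, and AT2G07722 by 2.13 and 2.53. AT2G07674 went the other way, with 0.91 (called) and 0.31 (not called). AT2G07774 was the gene with opposite signs, 0.30 and -0.30, neither called. The line by sulfur interaction of AT2G07719 in roots also had opposite signs, 0.15 on chromosome 2 and -0.63 in the mitochondrial run, neither called.

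In WT roots the genes of the mitochondrial genome itself moved in the same direction as the members, by less. Of the 15 with a probe set of their own 4 rose in WT roots and 0 fell, with 12 at an unadjusted p below 0.05, and the median was 0.43. These were matR, the maturase gene in an intron (1.26 ± 0.16), ccb382 and ccb203, genes for cytochrome c maturation (1.06 ± 0.18 and 0.85 ± 0.14), and nad2, a subunit gene of NADH dehydrogenase (0.59 ± 0.12). Without WT roots nS replicate 1 the median was 0.32 and 3 were called, all but nad2. In OX7.5 roots the mitochondrial genes did not share the direction of the members: the median was -0.01 and 7 of 15 were above 0, with 0 called and 1 at an unadjusted p below 0.05. In all 15 the line by sulfur interaction in roots was below 0, with a median of -0.47, 0 called and 11 at an unadjusted p below 0.05. Without that array the median was -0.39, again with all 15 below 0. In nS roots the median of these genes was 0.33 higher in OX7.5, with 1 of 15 called, ccb203, and 0.25 higher with 0 called without that array. The medians of the plastid genome genes differed between the lines in the same direction. Their root interaction was above 0 for 7 of 63, with a median of -0.40, 1 called below 0 (rbcL) and 30 at an unadjusted p below 0.05. Without that array the median was -0.37 and 0 were called. In nS roots their median was 0.19 higher in OX7.5, with 4 called higher and 0 lower. Without that array it was 0.23 higher, with 3 called. Over all 16554 genes an unadjusted p below 0.05 was met by 5457 in WT roots, 4843 in OX7.5 roots and 1596 for the root interaction. The part of mitochondrial or plastid transcripts in the signal of the insertion genes was not tested.

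The 35 probe sets that list a member locus beside other genes, such as cob, rps7 or ccb452, gave a like picture in a fit over all probe sets. They are not 35 separate readings. The probe sets of AT2G07701 with nad1 all had a mean of 7.26 over all arrays, and those of AT2G07702 with nad1 a mean of 5.80. The counts below therefore hold some signals more than once. In WT roots 24 rose and 0 fell, against 10.1% and 7.88% of all probe sets, with a median of 0.70. The count was 16 and the median 0.55 when WT roots nS replicate 1 was left out. In OX7.5 roots 7 rose and 0 fell, against 8.15% and 7.55% of all probe sets, with a median of 0.18. In shoots 0 were called in WT, against 9.87% up and 10.3% down over all probe sets, and 0 in OX7.5, against 6.76% up and 6.26% down. The nuclear genes on either side of the insertion showed no such rise, but their signal was low. Their mean was 1.71 to 1.88 on the root arrays, below the array medians of 2.58 to 2.63, so a lack of change says little. Of 124 genes from AT2G05000 to AT2G11999 outside the number range 5 rose and 5 fell in WT roots, with a median of -0.12, or 3 and 2 without WT roots nS replicate 1.

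Of the 3 nuclear genes for phage-type polymerases of organelles, 1 had a probe set of its own, AT5G15700 (RPOTmp), whose product serves mitochondria and plastids. It had 3.05, 3.26 and 3.07 in WT roots nS and 3.83, 3.90 and 4.04 in -S, and it rose by 0.80 ± 0.14 (adjusted p = 0.00014). In OX7.5 roots it had 3.29, 3.34 and 3.62 in nS and 3.74, 4.04 and 4.09 in -S, a difference of 0.54 ± 0.14 that missed the fold threshold. Its WT roots nS arrays did not set replicate 1 apart from the others. The line by sulfur interaction of this gene in roots was -0.25 ± 0.20 and did not pass (adjusted p = 0.73). In shoots it differed by 0.39 ± 0.14 in WT (adjusted p = 0.044) and by 0.52 ± 0.14 in OX7.5 (adjusted p = 0.012), both under the fold threshold. Its part in the changes of the insertion genes was not tested.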

How the data were processed

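The values are log2 signals per probe set of Arabidopsis Gene 1.1 ST arrays (24 samples, 28583 probe sets), which the authors made with RMA in Partek and deposited. Tool versions and a genome build are not given in the sources used here. The array medians differ by organ, as they would after separate normalization of the organs. Of the probe sets 16746 list exactly 1 gene in the platform annotation, and the brightest per gene gave 16554 genes. Symbols and gene order came from the TAIR10.1 gene table (49 members matched by Entrez identifier, 2 by locus). Genes of the mitochondrial genome were taken by symbol, since that table tags none of them with a locus number. Precision is limited by 3 arrays per group.

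A mean per group was fitted over all 24 arrays with limma 3.58.1 (R 4.3.3), with moderated statistics and Benjamini-Hochberg adjustment over all genes. Calls needed an adjusted p below 0.05 and, except for interactions, a fold of at least 1.5. The fit was checked on simulated data. Members and lists were chosen with earlier results of these data known. Genes described array by array were the 8 called members with the largest -S changes, the 3 with the largest line by sulfur interaction in each organ, the 4 brightest, those past ABCC13 and those on a probe set with a measured mitochondrial gene. AT2G07667, AT2G07672, AT2G07674, AT2G07715, AT2G07738, AT2G07773, AT2G07774 and AT2G07815 were named after their values were seen. Alternatives were a fit per organ, a replicate block, the mean of probe sets, a filter on dim genes, centring, array weights, all probe sets, unadjusted p, a fold of 2 and leaving out each array. Chosen after seeing the data were leaving out the 2 genes past ABCC13 and using chromosome 2 probe sets only.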

Additional observations from a re-analysis of the deposited data

Results flagged for a closer look

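The tests of a difference between lines or organs passed for several of the genes. The -S change in roots differed between OX7.5 and WT for 2 members, AT2G07708 (-1.49) and AT2G07732 (-1.21), both on the log2 scale as OX7.5 minus WT. The -S change differed between roots and shoots for 28 members in WT and for 7 in OX7.5, as roots minus shoots. In WT 52.9% of the members passed above 0 and 1.96% below 0, against 12.1% and 10.3% of all genes. In OX7.5 the shares were 11.8% and 1.96%, against 7.88% and 8.48% of all genes, so that with both directions counted the members did not pass more often than all genes there. Among the named genes the difference in WT was 2.20 for AT2G07722, 1.57 for AT2G07721, 1.46 for AT2G07825, 1.44 for AT2G07830, 1.40 for AT2G07669, 1.35 for AT2G07798, 1.31 for AT2G07708, 1.25 for AT2G07719, 1.06 for AT2G07785 and -0.85 for AT2G07760. In OX7.5 it was 2.03 for AT2G07724, 1.37 for AT2G07722, 0.96 for AT2G07721, 0.77 for AT2G07714, 0.70 for AT2G07719 and -0.73 for AT2G07732. Of these differences between organs, those of AT2G07760 and AT2G07785 in WT and of AT2G07714, AT2G07722 and AT2G07732 in OX7.5 lost the call on leaving out at least 1 array.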

How the results depend on the processing

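The median of OX7.5 minus WT in nS shoots, -0.03, turned to 0.02 without WT shoots nS replicate 1 and to 0.00 without OX7.5 shoots nS replicate 1. No other median over the members and none of the named genes followed turned direction under the alternatives run. In WT and OX7.5 roots the number of members called under -S, 36 and 16 in both directions together, stayed within 1.5 times its value, except that a fold threshold of 2 left 6 in OX7.5 roots. Leaving out each array in turn gave 33 to 39 and 13 to 18. In WT roots the median change was 0.97 with array weights and 0.85 to 1.32 on leaving out an array. In WT shoots, with 4 called, a fold of 2 left 1 and leaving out an array gave 2 to 5. In OX7.5 shoots, with 1 called, 2 were called in a fit of shoots alone, with the replicate block, without dim genes, with centred arrays or at unadjusted p, 3 with array weights and 1 to 4 on leaving out an array. The interaction of line and sulfur in roots, with 2 called, gave 0 in a fit of roots alone and with chromosome 2 probe sets only, 1 with the replicate block, with centred arrays or with all probe sets, 26 at unadjusted p and 0 to 6 on leaving out an array, when its median ranged from -0.87 to -0.34. In shoots it gave 2 at unadjusted p. For OX7.5 against WT in nS roots, with 11 called, the count was 1 in a fit of roots alone, 4 with array weights or at a fold of 2, 18 without dim genes, 25 at unadjusted p and 3 to 21 on leaving out an array. Its median was 0.40 with array weights and 0.28 to 0.68 on leaving out an array. In nS shoots 1 was called at unadjusted p with the same fold. The difference between organs gave 22 to 33 calls in WT and 4 to 7 in OX7.5 on leaving out an array, and 12 in OX7.5 at unadjusted p. Its median in WT was 1.01 without dim genes, 0.70 with array weights and 0.61 to 1.1 on leaving out an array. Taking the mean of probe sets, or leaving out the genes past ABCC13 (chosen after seeing the data), moved no count by over 1.5 times. The number of 3 arrays per group limits the precision, and dim genes carry little signal over background.

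Replicate numbers did not clearly pair the samples. Deviations of samples with the same number correlated between -0.079 and 0.11 in roots and between -0.24 and 0.14 in shoots. The medians were -0.003 in roots and 0.066 in shoots, against 0.001 and 0.0003 for samples of other numbers. Between roots and shoots the medians were 0.027 and -0.011. A weak pairing cannot be told from none by these values. The replicate block changed the counts named above for the interaction in roots (1) and for OX7.5 shoots (2).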
